A study of Homo sapiens with 4 samples.

Results

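The glucocorticoid receptor (GR) is a ligand-activated transcription factor of the nuclear receptor family. It binds DNA as a dimer at the glucocorticoid response element (GRE), a palindrome of paired hexamers, and it can also contact a single hexamer, the GRE half-site. Interspersed and tandem repeats make up much of the human genome, and copies of short hexamers are frequent in them. Neither cytosine measured here stands in a CpG, the context in which most methylation of mammalian DNA is found. Methylation outside CpG is placed by de novo methyltransferases such as DNMT3A, with a preference for cytosines followed by adenine.

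The sites described here are the GRE half-sites that the GR library covered inside repeats and away from promoters. They were chosen by distance to the nearest transcription start site (TSS), over 5 kb and at most 100 kb, and by a listed hexamer written wholly in lower case, the convention for repeat-masked sequence. By this rule 2066 distinct sites (chromosome, position and strand) were found, among 8107 distinct half-sites of the GR library and 15177 distinct sites of the whole series. The rule used no methylation value. The repeat family of each site was not analysed here.

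BisChIP-seq, in which immunoprecipitated chromatin is treated with bisulfite before sequencing, was run on HEK-293T, a human embryonic kidney cell line. Cells of both GR libraries carried 2 vectors, GR-pCMV14 with a 3X Flag tag and DNMT3A-pLX304, and were given 4 nM dexamethasone, a synthetic GR ligand, 24 h after transfection. One library was precipitated with anti-Flag antibody and is called the GR library, and the other was precipitated with IgG as control. Both the receptor and the methyltransferase were therefore expressed from plasmids, in the control as well as in the GR library, and there was no library of cells without dexamethasone or without DNMT3A among the GR samples. The remaining 2 libraries of the series, with BMAL1 and CLOCK and no dexamethasone, list the sequence without repeat case and were not compared.

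There was 1 library in each group, so no value has a replicate error, every test was run over sites, and each test compares libraries and not conditions. The methylation level of a site is the percent of its reads in which the cytosine was methylated, and a site at 50% or more is called highly methylated. Intervals are exact Clopper-Pearson 95% intervals. Beside a count of 0, the level or share that 3 counts of the total would give is stated as a rough upper limit, which is somewhat below the upper end of the exact interval. Both cover counting error only. The deposited tables hold sites of at least 4 reads, and 1663 of the 2066 sites had exactly 4. In all, the 2066 sites had 8917 reads, and the same rule gave 918 sites with 4070 reads in the IgG library. Over all distances and repeat classes, the GR library had 51518 reads and the IgG library 14143. No expression was measured, so the identity of the cells could not be checked against marker genes.

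Both orientations of the hexamer were measured. They are shown because each places its cytosine in a different context, with the measured cytosine, base 5 of the hexamer, in capitals and the rest in lower case.
Half-site AGAACA, cytosine before adenine (CA): agaaCa
Half-site TGTTCT, cytosine before thymine (CT): tgttCt
The 2 hexamers are reverse complements, so a site of one kind is a site of the other kind read on the opposite strand.

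In a few places neighbouring sites abutted each other at a spacing of 6 bp and formed an unbroken tandem of half-sites. These tandems are shown because the members of each could be read from the same DNA fragment. All were in the TGTTCT orientation, written 5′ to 3′ on the strand that was read, in the build hg18, with each measured cytosine in capitals.
ARFGEF2, chr20:46941459-46941476, minus strand: tgttCttgttCttgttCt
ARFGEF2, chr20:46941286-46941297, minus strand: tgttCttgttCt
SGPP1, chr14:63299213-63299224, plus strand: tgttCttgttCt
BCOR, chrX:39974118-39974129, plus strand: tgttCttgttCt
The gene named with each site is the one listed with the nearest TSS.

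ARFGEF2 encodes an exchange factor for ARF GTPases, SGPP1 a sphingosine-1-phosphate phosphatase and BCOR a transcriptional corepressor. In the GR library no methylated read was found in any of these tandems. The run of 3 hexamers near ARFGEF2 had 0 of 26 reads methylated, the pair nearby 0 of 8, the pair near SGPP1 0 of 8 and the pair near BCOR 0 of 10. In the IgG library, the cytosine at 46941460 in the run of 3 had 1 of 4 reads methylated.

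Distal half-sites inside repeats were almost free of methylation in the GR library. Of the 2066 sites, 2038 had no methylated read, 23 had 1, 5 had 2 and none had 3 or more. Sites with a methylated read therefore numbered 28, or 1.36% (interval 0.902% to 1.95%), and highly methylated sites numbered 3, or 0.145% (interval 0.0300% to 0.424%). Of 8917 reads, 33 were methylated, a pooled level of 0.370% (interval 0.255% to 0.519%). Fully methylated sites were not found, and for 0 of 2066 the limit of 3 counts is 0.145% and the upper end of the exact interval 0.178%.

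All 3 highly methylated sites were TGTTCT sites on the plus strand, each with 2 of 4 reads methylated. The first was on chromosome 9 at position 16239212, nearest BX648501, a transcript known by its accession number alone, with its TSS 32407 bp away. The second was on chromosome 9 at 28392013, 74010 bp from the TSS of LINGO2, a neuronal leucine-rich repeat membrane protein. The third was on chromosome X at 14900244, 86911 bp from the TSS of MOSPD2, a membrane protein of contacts with the endoplasmic reticulum. Each thus lay exactly at the 50% limit, and at this depth 1 read fewer would have placed it below.

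Just under the limit were a pair of sites with 2 of 6 reads methylated, both TGTTCT sites on the minus strand. One was 5535 bp from the TSS of FGGY, a carbohydrate kinase, on chromosome 1 at 59540747, and the other 74837 bp from the TSS of LCORL, a transcription factor gene, on chromosome 4 at 17707311. The remaining 23 sites had 1 methylated read each. The deepest of them was near ULK2, a kinase of autophagy, with 1 of 8 reads on chromosome 17 at 19662552. Of the 28 sites with a methylated read, 6 were AGAACA sites, nearest ATG4C, TMEM61, CSF3R, FNBP1L, TASP1 and CCRK, each with 1 methylated read of 4 to 6.

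Sites with a methylated read were found in each of 4 classes of depth. Of the 1663 sites with 4 reads, 20 had one, as did 4 of 300 with 5 reads (1.33%), 3 of 86 with 6 or 7 reads (3.49%) and 1 of 17 with 8 or more (5.88%). The intervals of these shares overlapped, the last running from 0.149% to 28.7%. On the plus strand 9 of 1025 sites had a methylated read (0.878%) and on the minus strand 19 of 1041 (1.83%), with overlapping intervals of 0.402% to 1.66% and 1.10% to 2.84%. The 47 sites on unplaced sequence had 1 with a methylated read, and the 2019 on placed chromosomes had 27.

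Some of the sites with 1 methylated read of 4 are given as examples, and their spread over the genome was not tested. They included sites nearest CSF3R, the receptor of granulocyte colony-stimulating factor, 7736 bp away, CACNA1E, a calcium channel subunit, 79923 bp away, and RGS7, a regulator of G-protein signalling, 33197 bp away, all on chromosome 1. Others were near TASP1, a protease that cuts MLL, 50001 bp away on chromosome 20, and CDKAL1, a tRNA-modifying enzyme, 8519 bp away on chromosome 6. On chromosome X, 3 such sites were nearest BC018009, TCEAL2 and NGFRAP1, at 100905424, 101235716 and 102509659. None of these had more than the 1 methylated read.

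Against the pooled level of the same orientation over all GR sites, 1.92% for AGAACA and 2.29% for TGTTCT, no site was higher after adjustment. The one-sided exact binomial test with Benjamini-Hochberg adjustment called 0 of the 2066 sites, beside a background of 1.15% of all 8107 sites (93 sites), 1.13% for AGAACA and 1.15% for TGTTCT. At an unadjusted p under 0.05 there were 5 of the 2066 (0.242%), beside 133 of all 8107 sites (1.64%), and the smallest adjusted p among the 5 was 0.193. With 2 of 4 reads methylated a site did not pass this test, so the counts speak of the group and not of single sites.

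The same rule applied to the IgG control gave a larger share of reads called methylated. Of its 918 sites, 264 had a methylated read (28.8%, interval 25.8% to 31.8%), against 28 of 2066 in the GR library, and the difference of 27.4 percentage points had p = 2.51e-113 by Fisher's exact test, two-sided (adjusted p = 6.03e-112 over 24 comparisons). The pooled level was 7.35% in IgG, from 299 of 4070 reads, against 0.370% in GR. Highly methylated sites were 20 of 918 in IgG (2.18%) and 3 of 2066 in GR (0.145%), with p = 3.18e-08 by Fisher's exact test (adjusted p = 6.95e-08). Over all distances and repeat classes, a methylated read was found at 27.6% of the 2715 IgG sites and 3.07% of the 8107 GR sites, so the higher share in IgG was not found in repeats alone. The sources used here do not give the completeness of bisulfite conversion in either library. The cause of the difference was not tested.

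The direction of the difference was found in both orientations for sites with a methylated read. AGAACA sites with a methylated read were 6 of 281 in GR (2.14%) and 238 of 765 in IgG (31.1%), with p = 1.46e-29 by Fisher's exact test (adjusted p = 8.76e-29). For TGTTCT the values were 22 of 1785 (1.23%) and 26 of 153 (17.0%), with p = 1.69e-17 (adjusted p = 8.13e-17, Fisher's exact test). All 20 highly methylated IgG sites were AGAACA sites, while the 3 of GR were TGTTCT sites. For highly methylated AGAACA sites, 0 of 281 against 20 of 765, p was 0.00347 by Fisher's exact test (adjusted p = 0.00595), and for TGTTCT, 3 of 1785 against 0 of 153, p was 1.

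**Figure D1:**
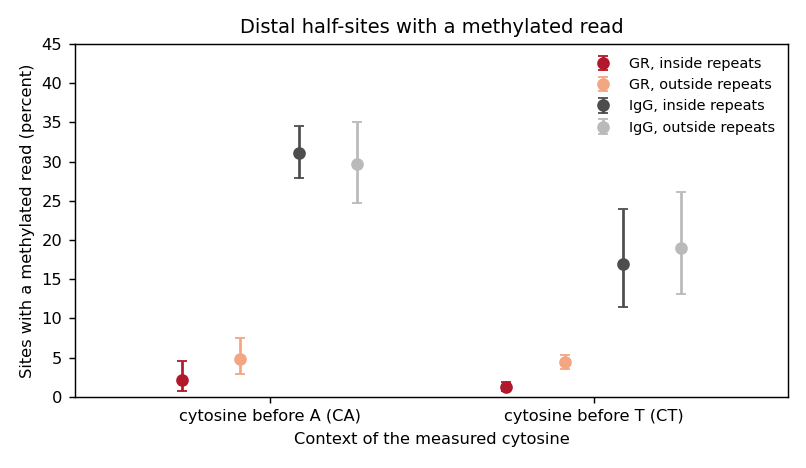
Share of distal half-sites with at least 1 methylated read (vertical axis, percent) for AGAACA sites (cytosine before A) and TGTTCT sites (cytosine before T). Points are shares and bars exact 95% intervals, in the GR and IgG libraries inside and outside repeats. The GR sites inside repeats are at 2.14% and 1.23%, below the IgG sites inside repeats at 31.1% and 17.0%.

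Within the GR library, the orientations did not differ detectably, at 2.14% for AGAACA and 1.23% for TGTTCT (p = 0.259 by Fisher's exact test, adjusted p = 0.311). The interval of the AGAACA share, 0.787% to 4.59%, is wide and includes the TGTTCT share. In IgG the AGAACA sites had the larger share, 31.1% against 17.0% (p = 3.94e-04, adjusted p = 7.28e-04, Fisher's exact test).

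The 2 libraries differed in which orientation they covered. The GR sites were 281 AGAACA and 1785 TGTTCT, and the IgG sites 765 AGAACA and 153 TGTTCT, so a value over both orientations weighs them differently. All 281 AGAACA sites of GR were listed more than once in the deposited table, 166 of them 2 times and 115 of them 4 times with identical counts, while 98 of the 1785 TGTTCT sites were listed 2 times and no IgG site was repeated. Counting each site once removes these repeats. None of the 2066 sites had the cytosine on the other strand of the same hexamer listed as well, whereas 4 of the 918 IgG sites did.

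The libraries also differed in how much of their distal coverage lay in repeats. Of 4732 distal GR sites, 43.7% were inside repeats, 2624 were outside and 42 had mixed case. In IgG, 65.3% of 1405 distal sites were inside repeats (p = 1.39e-46 by Fisher's exact test, adjusted p = 1.67e-45). The difference was found for AGAACA, at 41.1% in GR and 70.0% in IgG (p = 3.39e-33, adjusted p = 2.71e-32, Fisher's exact test). For TGTTCT it was not detected, at 44.1% and 49.0% (p = 0.0978, adjusted p = 0.138, Fisher's exact test). Nearer to the TSS the share inside repeats in GR was 30.4% of 939 sites, and beyond 100 kb it was 49.5% of 2436.

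Compared with distal GR half-sites outside repeats, those inside had less methylation. This was seen from 5 to 100 kb. Beyond 100 kb the shares with a methylated read were 1.74% inside and 1.58% outside, a pair that was not tested. A methylated read was found at 28 of 2066 inside (1.36%) and at 117 of 2624 outside (4.46%), with p = 2.51e-10 by Fisher's exact test (adjusted p = 8.61e-10). Highly methylated sites were 3 inside and 69 outside (2.63%), with p = 2.74e-14 (adjusted p = 1.10e-13, Fisher's exact test). Fully methylated sites were 0 inside and 31 outside (1.18%), with p = 2.06e-08 (adjusted p = 4.95e-08, Fisher's exact test). The pooled level outside was 4.55%, from 564 of 12383 reads. A pooled level weighs deep sites more, and the deepest site outside had 498 reads. The mean level per site was 2.58% outside and 0.363% inside.

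The contrast lay in sites with several methylated reads. Sites with exactly 1 methylated read were 23 of 2066 inside (1.11%) and 43 of 2624 outside (1.64%), a difference that was not detected (p = 0.136, adjusted p = 0.181, Fisher's exact test). Sites with 2 were 5 and 22, and sites with 3 or more were 0 and 52. Among the sites with 8 or more reads, 0 of 17 inside and 16 of 25 outside were highly methylated (unadjusted p = 1.35e-05, Fisher's exact test). The contrast was thus found also among these few deep sites. Of the 17 inside, 5 lay on unplaced sequence, and sites near each other were counted as separate.

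**Figure D2:**
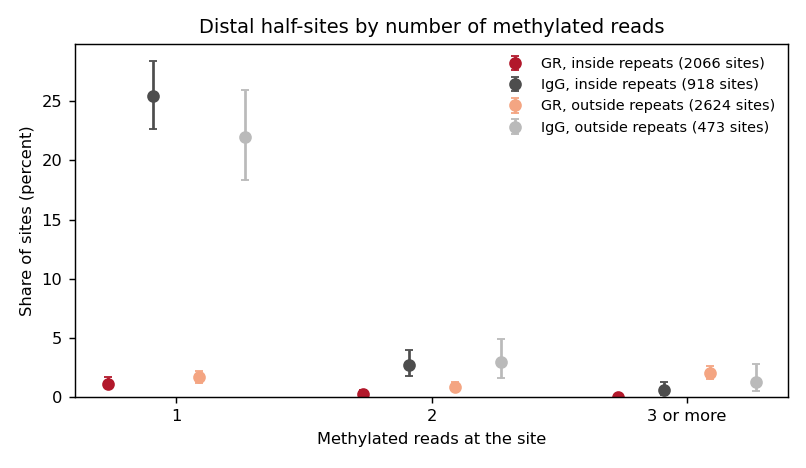
Share of distal half-sites (vertical axis, percent) with 1, 2, or 3 or more methylated reads, in the GR and IgG libraries inside and outside repeats. Points are shares and bars exact 95% intervals. GR sites inside repeats have 23, 5 and 0 sites in the 3 classes, against 43, 22 and 52 outside repeats.

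By orientation, TGTTCT sites with a methylated read were 22 of 1785 inside and 98 of 2231 outside (4.39%), with p = 1.74e-09 (adjusted p = 5.21e-09, Fisher's exact test). For AGAACA they were 6 of 281 inside and 19 of 393 outside (4.83%), where p was 0.0964 (adjusted p = 0.138, Fisher's exact test) and the difference was not detected with this number of sites. With the repeated rows counted as deposited, the AGAACA difference had p = 0.00612 by Fisher's exact test, on rows that are not separate sites.

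In the IgG library no such difference was detected, with a methylated read at 28.8% of sites inside and at 26.2% of 473 outside (p = 0.344, adjusted p = 0.375, Fisher's exact test). The difference between the libraries was itself compared inside and outside repeats by Zelen's exact test of equal odds ratios, over both orientations together. For any methylated read, GR minus IgG was −27.4 percentage points inside, 5.65 points below its value outside (exact p = 1.09e-08, adjusted p = 2.91e-08). For highly methylated sites, 3 of 2066 and 20 of 918 inside were set against 69 of 2624 and 17 of 473 outside (3.59%), and the difference was 1.07 points further down inside (p = 6.83e-05, adjusted p = 1.37e-04, Zelen's exact test).

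The sites inside repeats were also set out by distance to the TSS. The median distance was 29654 bp over all 2066 sites, from 5010 to 99750 bp, and 32003 bp over the 28 with a methylated read. A methylated read was found at 4 of 294 sites from 5 to 10 kb (1.36%), at 8 of 616 from 10 to 25 kb (1.30%), at 8 of 568 from 25 to 50 kb (1.41%) and at 8 of 588 from 50 to 100 kb (1.36%). These shares lay between 1.30% and 1.41%. Highly methylated sites were 0 of 294, 0 of 616, 1 of 568 and 2 of 588 in the same bands. Outside repeats, a methylated read was found at 6.04% of 414 sites in the nearest band and at 3.35% of 686 in the farthest. Highly methylated sites were 3.62% and 1.75% of these, and no test of a trend was run.

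**Figure D3:**
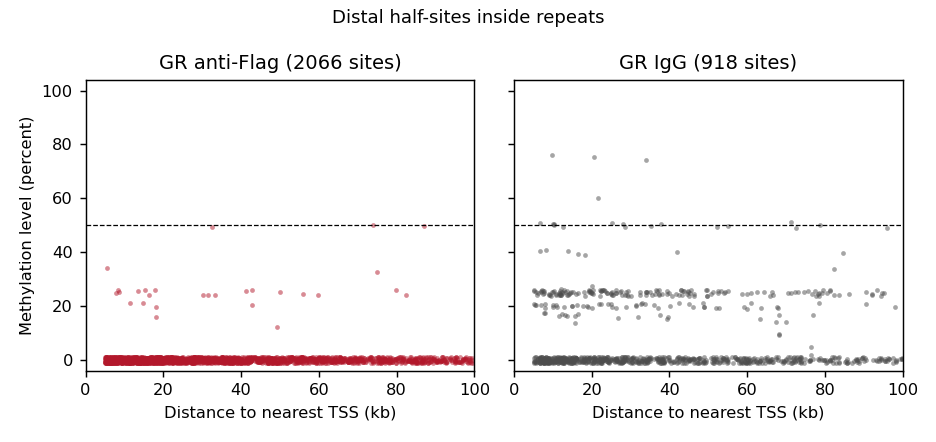
Methylation level (vertical axis, percent, with a small vertical jitter) of each distal half-site inside repeats against its distance to the nearest TSS (horizontal axis, kb), for the GR library (left) and IgG (right). The dashed line marks 50%. In GR, 2038 of 2066 points are at 0 and 3 reach the line, and in IgG 20 of 918 reach or pass it.

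Repeat half-sites within 5 kb of a TSS were highly methylated more often, 4 of 285 (1.40%) against 3 of 2066 (p = 0.00549, adjusted p = 0.00879, Fisher's exact test), and 3 of those 4 were fully methylated. The pooled level within 5 kb was 1.54% (interval 0.927% to 2.39%). This rested on few sites. Over sites with exactly 4 reads the test gave p = 0.111, and with distal taken as over 10 kb p = 0.0669, so the call did not hold there. For any methylated read the shares were 2.11% within 5 kb and 1.36% beyond, and no difference was detected (p = 0.292, adjusted p = 0.334, Fisher's exact test). Beyond 100 kb, 21 of 1206 repeat sites had a methylated read (1.74%) and 3 were highly methylated (0.249%). Outside repeats at that distance, 19 of 1202 had a methylated read (1.58%) and 8 were highly methylated (0.666%). At the limits of the rule, the sites at 5010 and 5051 bp inside and at 4990 and 5000 bp outside had no methylated read, and the same was true at 99717 and 99750 bp inside and at 100052 and 100216 bp outside.

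The sites were scattered over many genes. They were nearest to 1744 different genes, of which 1513 had 1 site and 231 had more. Of the 2066 sites, 1583 were nearest a gene whose name matched the RefSeq table, and 1490 of those were nearest a protein-coding gene. Chromosome 1 held 357 of the sites (17.3%) in GR and 126 of 918 (13.7%) in IgG. Sites closer than 200 bp to each other formed 58 groups holding 128 sites, and the largest group had 5, so 1996 separate places were covered.

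The gene with the most sites was MGC70870, on the unplaced sequence of chromosome 17, with 26 sites and 0 of 117 reads methylated. Together with a neighbouring site nearest KRTAP4-12, a gene for a cysteine-rich hair keratin-associated protein, they formed a block of 27 sites over 91587 bp. Within it 26 were TGTTCT sites on the minus strand, and 6 pairs of neighbours were spaced exactly 48 bp apart. The site near KRTAP4-12 had 1 of 4 reads methylated, which made 1 of 121 reads in the block. The IgG library listed 3 sites there, with 1 of 12 reads methylated. How reads of such closely similar stretches were placed was not tested.

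**Figure D4:**
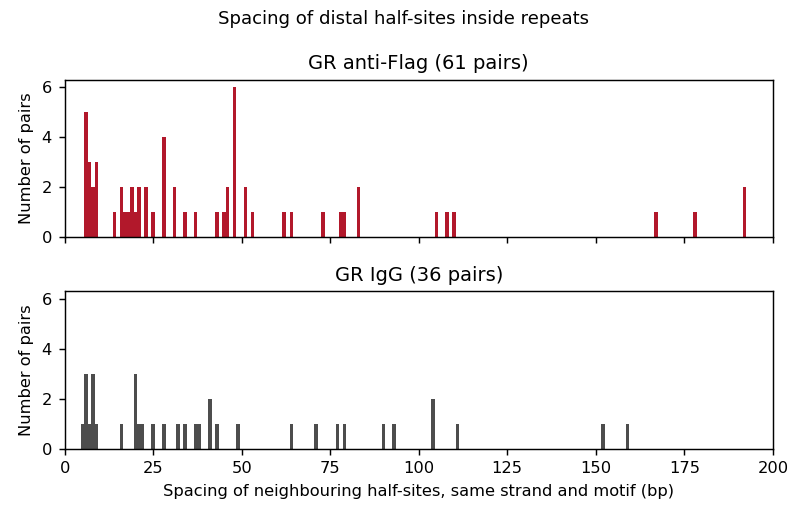
Number of pairs of neighbouring half-sites of the same strand and orientation (vertical axis) by their spacing in bp (horizontal axis, up to 200 bp), for distal sites inside repeats in the GR library (top, 61 pairs) and IgG (bottom, 36 pairs). In GR the tallest bars are at 48 bp with 6 pairs, 6 bp with 5 pairs and 28 bp with 4 pairs.

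ESRRG, which encodes the orphan nuclear receptor estrogen-related receptor gamma, had 9 sites from 7558 to 62434 bp from its TSS, 7 in the TGTTCT and 2 in the AGAACA orientation. Their 42 reads were all unmethylated, so a level of up to 7.14% is possible by counting. RNF208, a ubiquitin ligase gene nearest to unplaced sequence of chromosome 9, had 7 sites with 0 of 132 reads methylated. ARFGEF2 had 5 sites, all in the tandems shown above, with 0 of 34. Another 7 genes had 4 sites each, with 0 methylated reads at AX747556, BC030764, BOZF1, DQ571479, TFG and PDE4B, a cyclic AMP phosphodiesterase, and 1 of 19 at TCEAL2.

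No pair of listed sites formed a complete GRE, in which an AGAACA and a TGTTCT hexamer stand with 3 bases between them. Such an element can be listed as an AGAACA and a TGTTCT site 9 bp apart on 1 strand, as 2 AGAACA sites 6 bp apart on opposite strands, or as 2 TGTTCT sites 12 bp apart on opposite strands. In none of these forms did any of the 2066 sites have a partner. Outside repeats 6 of 2624 had one, all in the first form. A partner covered by fewer than 4 reads would not be listed, so the count describes listed sites only.

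The deepest sites had no methylation in the GR library. Near RNF208, the site at 1050375 on the unplaced sequence of chromosome 9 had 0 of 63 reads methylated and the one at 1052759 had 0 of 35. Other sites of 10 or more reads were near SCRT1, a zinc finger repressor of neurons, with 0 of 14, near BC038578 and CR612557 with 0 of 11 each, and near RNF208 again with 0 of 10 at 2 sites. Together the 7 sites of 10 or more reads had 0 of 154 reads methylated, with a limit of 1.95% by 3 counts and 2.37% by the exact interval. Of the next sites in depth, with 8 or 9 reads, only the one near ULK2 had a methylated read, and the one near PIAS1, a SUMO ligase, had 0 of 8.

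Sites read in both libraries allow a comparison at the same cytosine. Of 77 half-sites at any distance covered by both, 7 differed by Fisher's exact test per site after adjustment (9.09%). Of the 19 distal repeat sites among them 0 did, nor did any at an unadjusted p under 0.05. Most of the 19 had few reads, and 1 of 4 in IgG against 0 of 9 in GR gave p = 0.308 by Fisher's exact test. At such depth the test could seldom call a site, so the count of 0 does not show that the libraries were alike. At these 19 sites no read was methylated in GR, 0 of 221 (a level of up to 1.36%), and 4 of 139 were in IgG (2.88%). The 4 IgG reads were 1 of 33 near RNF208, 1 of 4 near ARFGEF2, 1 of 11 near SCRT1 and 1 of 5 near PSEN2, a presenilin gene, where GR had 0 of 63, 0 of 9, 0 of 5 and 0 of 4.

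At the shared repeat sites the GR library had no large excess of reads over IgG. The ratio of GR to IgG reads had a median of 1.25 and ran from 0.455 to 3.89, with more reads in GR at 11 sites, equal reads at 4 and fewer at 4. The other 58 shared sites had a median ratio of 2.28, with a highest value of 49.8. These are ratios of raw reads and are not scaled for library depth. Without the sites on unplaced sequence, 12 of the 19 remained, with 0 of 80 reads methylated in GR and 2 of 57 in IgG. The 19 were 0.920% of the 2066 GR sites and 2.07% of the 918 IgG sites. Over all half-sites the 77 shared were 0.9498% of 8107 GR sites and 2.84% of 2715 IgG sites, so the share among the repeat sites was near that of all sites.

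**Figure D5:**
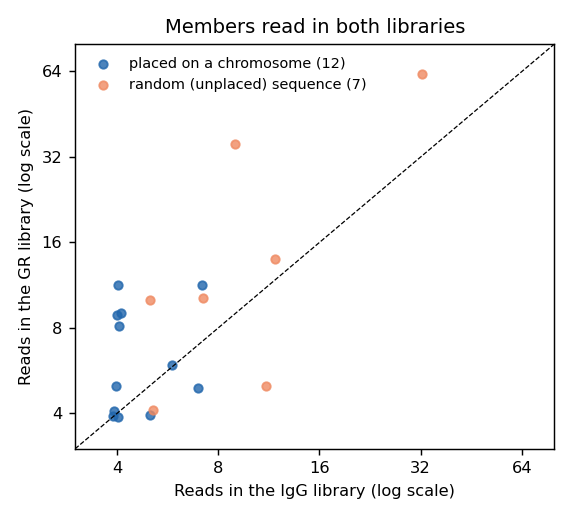
Reads in the GR library (vertical axis, log scale) against reads in IgG (horizontal axis, log scale) at the 19 distal half-sites inside repeats that both libraries cover, with a small jitter. Points on the dashed line have equal reads. Of the 19 points, 11 have more reads in GR, and the site with 63 GR and 33 IgG reads lies on unplaced sequence.

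Genes of the glucocorticoid response were looked up among the nearest genes. Of 34 genes known to be induced by glucocorticoids, 3 were nearest to a site. FKBP5, a co-chaperone of steroid receptors, had a site 48270 bp from its TSS with 0 of 5 reads methylated. ALOX5AP, the activating protein of 5-lipoxygenase, had one 33760 bp away with 0 of 4, and CRISPLD2, a secreted protein, one 14441 bp away with 0 of 5. All 14 reads were unmethylated, and 0 of 14 leaves room for a level of up to 21.4%. The IgG library had no distal repeat site at any of the 34 genes.

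Of 27 nuclear receptor and cofactor genes on the list used here, none was nearest to a GR site. That list was not complete, since it did not hold ESRRG, the orphan nuclear receptor gene with 9 sites described above. Among 17 genes of DNA methylation, HELLS, a chromatin remodeler needed for methylation of repeats, had 1 site with 0 of 4. Among 24 genes of repeat silencing there was none, and none at the genes carried by the vectors. Of 23 clock genes, BHLHE40, NFIL3 and RORB each had 1 site, with 0 of 14 reads methylated in all, while in IgG CRY1, HLF, RORA and RORB had 4 sites with 2 of 17.

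Genes of 3 families of large clusters were looked up by the start of their names. Zinc finger genes, many of which encode repressors of repeats, were nearest to 28 sites over 21 genes, with 0 of 125 reads methylated (a level of up to 2.40%), and in IgG to 11 sites with 5 of 46. Olfactory receptor genes were nearest to 23 sites over 19 genes, with 0 of 100 reads methylated (up to 3%), and in IgG to 10 sites with 3 of 48. Cadherin and protocadherin genes were nearest to 3 GR sites with 0 of 13 and to 4 IgG sites with 2 of 17. No GR read was methylated in these 3 families, beside 0.370% of the reads over all 2066 sites, a share so low that these read numbers do not set the families apart.

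The 20 highly methylated IgG sites were spread over as many genes. The deepest was near TNIP2, an inhibitor of NF-kappaB signalling, with 3 of 6 reads, followed by the calcium-sensing receptor gene CASR with 3 of 5. The other 18 had 4 reads each, with 3 methylated near CACHD1, BC089397 and DQ576041 and 2 at the remaining 15. None of them was among the sites that the GR library covered.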

How the data were processed

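Bisulfite reads of 2 sequencing runs were pooled for each library by the authors and mapped with Bismark to hg18. Overlapping ends of a pair were ignored and duplicates were removed with SAMtools (tool versions: not given in the sources used here). Values were deposited as counts, not normalized, of methylated reads and of total reads for cytosines read at least 4 times, with the nearest gene and its unsigned TSS distance.

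From these counts, repeated rows of a site were counted once. Strand was taken from the strand column and orientation from the motif of each table, since the listed hexamer is written as AGAACA in either one. Fisher's exact test (two-sided) was used for shares, and Zelen's exact test for differences between libraries, with Benjamini-Hochberg adjustment over 24 comparisons, 15 of them added after the tables had been examined. Neighbouring sites were treated as independent. The scripts were tested on simulated data. Named sites are all highly methylated ones, the 10 deepest, those at listed genes, those at the 10 genes with most sites, and the deepest highly methylated IgG sites. Tandems, the block on chromosome 17, and sites with 1 methylated read were named after their values were seen. The rule for the sites and all gene lists were chosen with earlier results of these data known. Alternatives changed the read minimum, the level limit, the distances, the repeat rule and the counting of repeated rows and neighbours. Python 3.11.15, pandas 2.3.3, scipy 1.17.1, numpy 2.4.6 and matplotlib 3.10.9 were used. Gene names were matched to RefSeq (GRCh38.p14), for names only.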

Additional observations from a re-analysis of the deposited data

Results flagged for a closer look

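The difference between the GR and IgG libraries was not the same inside and outside repeats. For any methylated read, GR lay below IgG at distal sites both inside repeats (1.36% against 28.8%) and outside (4.46% against 26.2%). The difference changed by −5.65 percentage points from outside to inside. Zelen's exact test, which compares odds ratios and not percentage points, gave p = 1.09e-08. For highly methylated sites the change was −1.07 percentage points (p = 6.83e-05 by the same exact test), from 0.145% against 2.18% inside and 2.63% against 3.59% outside. Both tests pooled the 2 orientations and were not run for each orientation. The IgG sites were 765 AGAACA and 153 TGTTCT inside repeats, and 320 and 153 outside, so the mix of orientations also changed. Each library stands alone in its group, so these tests cover the counting of sites and not variation between experiments.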

How the results depend on the processing

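All p here are from Fisher's or Zelen's exact test. Over 27 results, 262 alternatives were computed, of which 223 kept direction and side of the threshold. Depth was 1 limit, since 17 of the 2066 sites had 8 or more reads and 7 had 10 or more. With either minimum, the highly methylated share was 0%, and the differences between GR and IgG (also by orientation), between distal and near sites and between orientations were 0 percentage points. The change of the GR and IgG difference was −64 and −75 points there. Zelen's test could not judge this change, because neither library had a highly methylated site inside repeats at that depth. With at least 8 reads, any-methylated-read differences between GR and IgG were −42.9 points for AGAACA (0 of 3 sites against 3 of 7, exact p = 0.475) and for TGTTCT (1 of 14 against 1 of 2, exact p = 0.242), so neither call held. At that depth, AGAACA minus TGTTCT turned to −7.14 points in each library, the difference by distance turned to 5.88 points, that for exactly 1 methylated read turned to 1.88, the highly methylated IgG difference inside against outside was 0, and the share inside repeats differed between libraries by −19.5 points (exact p = 0.236), and by −13.6 for AGAACA (exact p = 0.644).

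With highly methylated taken from 25%, the share was 1.06%, the TGTTCT difference between GR and IgG turned to −12.1 points (exact p = 2.61e-13), the orientation difference to 0.42, and the IgG difference inside against outside to 0.30, and distal minus near was −1.04 (exact p = 0.140). From 75%, the share and the TGTTCT and orientation differences were 0, and the AGAACA difference between libraries was −0.39 (exact p = 0.568). With exactly 4 reads, distal minus near was −0.71 (exact p = 0.111). With the near and distal groups divided at 10 kb, it was −0.52 (exact p = 0.0669). With no upper distance limit, the highly methylated TGTTCT difference turned to −0.51 and IgG inside minus outside for any methylated read was 4.65 (exact p = 0.0126). With repeated rows as deposited, AGAACA minus TGTTCT in GR was 1.30 (exact p = 0.0181) and AGAACA inside minus outside −2.48 (exact p = 0.00612). With any lower-case letter, the TGTTCT share inside repeats differed by −6.06 (exact p = 0.0390). Apart from fewer sites at a higher minimum, the cause was not tested. Counting sites closer than 200 bp once, or leaving out unplaced sequence, changed no call. No paired analysis was possible because each group had 1 library.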
